A study of Mus musculus with 10 samples.

Results

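The antioxidant enzymes described here are 50 protein-coding genes of the mouse, taken by name from a table of 26863 genes measured in interscapular (labelled intrascapular) brown adipose tissue, a fat that makes heat. They comprise the glutathione peroxidases (Gpx), the glutathione S-transferases (Gst), the microsomal transferases (Mgst), the peroxiredoxins (Prdx), the enzymes that make and recycle glutathione (Gclc, Gclm, Gss and Gsr), the thioredoxin system (Txn1, Txn2, Txnrd1, Txnrd2 and Txnip), the superoxide dismutases (Sod1, Sod2 and Sod3), catalase (Cat), Nqo1 and the regulator Nfe2l2. PolyA RNA of 10 mouse samples was sequenced, 5 of the genotype PnocCre, a Cre line named for the Pnoc gene, and 5 of the genotype Wildtype. All 10 had received CNO (clozapine-N-oxide, a drug that acts on designer receptors) 1 h before the depot was taken. By the series' description, this treatment activated PNOC neurons in the medial preoptic area, part of the hypothalamus. Not given in the sources used here are the designer receptor, whether Wildtype animals carried it, and the strain, sex and age. No label states that the samples are separate animals, so a p-value here rests on the spread between samples, which may be technical.

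Reactive oxygen species leak from the respiratory chain, which runs fast in brown fat. Superoxide dismutases turn superoxide into hydrogen peroxide, which catalase, the peroxiredoxins and the glutathione peroxidases then remove. Peroxiredoxins are recharged by thioredoxin and thioredoxin reductase, glutathione peroxidases by glutathione and glutathione reductase, and both routes draw on NADPH. Glutathione S-transferases couple glutathione to reactive compounds, among them the aldehydes that arise when lipids are oxidised. Many genes of both systems are targets of NRF2, the product of Nfe2l2, which binds antioxidant response elements in their promoters.

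The libraries held 21304238 to 29171787 reads, and between 0.771% and 1.13% of them fell on the 50 genes. Values are read counts that the authors divided by 1 size factor per library, called normalised counts here. Markers of brown adipocytes were abundant in every library, which fits the labelled tissue, but they were lower in PnocCre for 11 of 12 genes. Their summed level was 149240.3 to 181369 normalised counts in PnocCre and 193449 to 239165 in Wildtype, with no overlap. Skeletal muscle markers were higher in PnocCre for all 20 measured genes, with sums of 11127 to 234033 against 2589.9 to 31593, and Tnnc2 had a mean under 10. Fibroblast markers were higher for 12 of 12 genes (14909 to 22735 against 8561 to 15644) and macrophage markers for 10 of 11 (1806 to 2889 against 1521 to 1858). White adipocyte markers were higher for 8 of 9 measured genes, although their sums overlapped (13880.3 to 25615 against 13386 to 19262), and endothelial markers for 10 of 10 (19855 to 36309 against 18742 to 34726). PnocCre replicate 2 stood apart in lymphocyte markers, with a sum of 5746 against 97.0 to 294 in the other 9 libraries, and PnocCre replicate 1 in neutrophil markers, with 807 against 41.8 to 127. The part of these cells in the results below was not tested beyond the covariate fits given, and in bulk tissue fewer cells of a type and less RNA per cell cannot be told apart.

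Most antioxidant genes had somewhat lower levels in PnocCre than in Wildtype, and the smallest p-values were those of Txnrd2, Sod2, Prdx3, Gclm and Gstm4 on the lower side and Gsta3 on the higher side. No member passed limma's test at an adjusted p under 0.05, nor did any other of the 15301 genes tested (0%), and the smallest adjusted p of a member was 0.129. Of the 50 members, 47 had a mean of at least 10 normalised counts and entered that test; Gstt4, Gsta2 and Gstm3 did not. Among the 47, 31 were lower and 16 higher, and their median log2 fold change (PnocCre over Wildtype) was -0.12, while over all genes tested 50.7% were lower and the median was -0.0062. The unadjusted p was under 0.05 for 11 lower members, or 23.4% of those tested, against 8.07% of all genes, and 1 higher member, or 2.13%, against 8.94%. Groups were fully separated for 6 lower members (Txnrd2, Gstm4, Gclm, Sod2, Prdx3 and Prdx1; 12.8%, against 2.61% of all genes) and 2 higher ones (Gsta3 and Nqo1; 4.26%, against 1.79%). DESeq2, the authors' tool, called 4 members lower (Txnrd2, Sod2, Gclm and Gstm4; 8.51% of the 47, against 1.24% of its 16733 genes) and 1 higher (Gsta3; 2.13%, against 2.20%). These shares are descriptions, and no test of the family as a whole was made. Once the mean level of skeletal muscle markers entered as a covariate, DESeq2 called 0 members but still 3.22% of all genes, against 3.44% without it. The median in limma was then -0.023, with 27 lower and 20 higher. In that limma fit 8 members were lower at an unadjusted p under 0.05 (17.0%, against 11.4% of all genes) and 2 higher (4.26%, against 9.86%). Gclm stood at -0.38, Gstm4 at -0.43, Sod2 at -0.45, Prdx3 at -0.56 and Txnrd2 at -0.25. Brown adipocyte markers were the other covariate, chosen after seeing the data. Their mean log2 level was 11.7 to 12.1 in PnocCre and 12.1 to 12.5 in Wildtype, so this covariate nearly followed genotype. A fit that holds both can hardly part them, and its log2 fold changes, here and below, are loosely determined. With the brown adipocyte covariate 3 members (6.38%, against 1.56% of all genes in that fit) in place of 11 were lower at an unadjusted p under 0.05. These were Txnrd2 (log2 fold change -0.36 without and -0.43 with the covariate), Gstm4 (-0.39 and -0.48) and Gstp3 (-0.64 and -1.36). Without Wildtype replicate 2, 4 or 5 DESeq2 called 1 member, Txnrd2, in each case, and 1.39%, 1.69% and 1.58% of all genes.

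**Figure D1:**
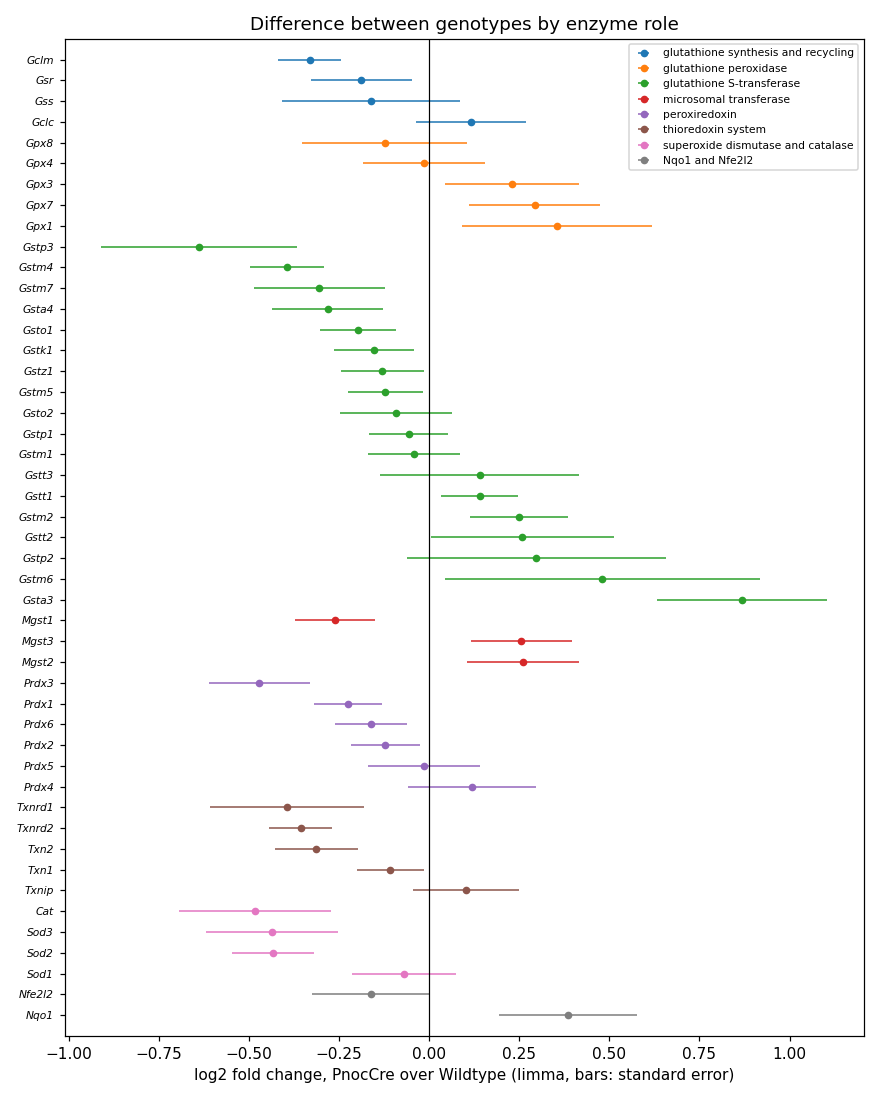
Log2 fold change of the 47 measured members, PnocCre over Wildtype, on the log2(value + 1) scale; points are limma estimates from 5 libraries per genotype, bars are standard errors, and colours mark the role. All 4 dismutase and catalase genes lie left of 0, and Gsta3 lies farthest to the right at 0.87.

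The promoters of the members were read for the core of the antioxidant response element, TGACNNNGC, on both strands, because this is the element through which NRF2 acts. RefSeq promoters (250 bases before to 50 after the start of transcription) were found for 44 of the 50 members. The core was present for 9 of these 44 genes (20.5%), which were Gclm, Gsta3, Gstm5, Gstm7, Mgst1, Nfe2l2, Prdx1, Sod1 and Txnrd1, and for 14.0% of all 27025 genes with a promoter in the same table. The element of the oestrogen-related receptors, TNAAGGTCA, and the palindromic NRF1 site were looked for as well, since both factors act on mitochondrial genes, and 0 of the 44 held either, against 1.43% and 1.07% of all genes. A match of letters is not a bound site. Shown are the 4 promoters with the core among members at an unadjusted p under 0.05, of which Gclm, Prdx1 and Mgst1 were lower and Gsta3 higher in PnocCre, with the core, or its reverse complement, in capitals, and those of Sod2 and Txnrd2, which hold none of the 3 motifs in this window.
Gclm (GRCm38.p6, chr3:122245307-122245606, plus strand): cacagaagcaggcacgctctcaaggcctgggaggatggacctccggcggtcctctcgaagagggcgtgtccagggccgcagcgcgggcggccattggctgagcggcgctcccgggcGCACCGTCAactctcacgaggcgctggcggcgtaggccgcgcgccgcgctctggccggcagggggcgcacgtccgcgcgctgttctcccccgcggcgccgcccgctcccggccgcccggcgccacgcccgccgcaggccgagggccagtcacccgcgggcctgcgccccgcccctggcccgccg
Prdx1 (GRCm38.p6, chr4:116685349-116685648, plus strand): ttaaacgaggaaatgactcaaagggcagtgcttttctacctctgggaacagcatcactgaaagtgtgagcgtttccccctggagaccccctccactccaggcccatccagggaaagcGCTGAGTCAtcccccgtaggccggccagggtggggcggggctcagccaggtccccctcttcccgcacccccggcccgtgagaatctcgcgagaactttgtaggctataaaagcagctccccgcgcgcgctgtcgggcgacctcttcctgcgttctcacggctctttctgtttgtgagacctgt
Mgst1 (GRCm38.p6, chr6:138140277-138140576, plus strand): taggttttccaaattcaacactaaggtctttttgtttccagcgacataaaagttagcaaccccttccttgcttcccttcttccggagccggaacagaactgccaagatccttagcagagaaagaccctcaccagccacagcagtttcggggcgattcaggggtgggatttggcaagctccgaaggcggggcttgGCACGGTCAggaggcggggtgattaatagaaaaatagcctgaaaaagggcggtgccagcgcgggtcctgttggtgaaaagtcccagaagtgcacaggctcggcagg
Gsta3 (GRCm38.p6, chr1:21240335-21240634, plus strand): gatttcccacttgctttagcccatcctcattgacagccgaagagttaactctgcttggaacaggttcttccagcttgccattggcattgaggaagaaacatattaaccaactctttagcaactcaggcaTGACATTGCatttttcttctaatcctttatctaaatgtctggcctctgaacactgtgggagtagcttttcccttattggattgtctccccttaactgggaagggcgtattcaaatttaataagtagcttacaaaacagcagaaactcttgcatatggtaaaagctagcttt
Sod2 (GRCm38.p6, chr17:13007589-13007888, plus strand): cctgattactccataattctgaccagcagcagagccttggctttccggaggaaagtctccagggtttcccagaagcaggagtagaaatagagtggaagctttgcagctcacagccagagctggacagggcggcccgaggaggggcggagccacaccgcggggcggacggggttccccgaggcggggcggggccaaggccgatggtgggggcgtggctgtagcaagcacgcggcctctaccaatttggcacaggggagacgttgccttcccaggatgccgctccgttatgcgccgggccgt
Txnrd2 (GRCm38.p6, chr16:18426167-18426466, plus strand): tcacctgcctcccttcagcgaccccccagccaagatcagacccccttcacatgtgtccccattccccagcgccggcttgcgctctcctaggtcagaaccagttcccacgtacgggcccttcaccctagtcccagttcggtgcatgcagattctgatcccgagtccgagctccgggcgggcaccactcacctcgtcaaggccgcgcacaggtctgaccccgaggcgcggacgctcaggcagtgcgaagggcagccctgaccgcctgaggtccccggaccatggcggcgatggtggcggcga
The core began 134 bases before the start of Gclm, 133 before that of Prdx1, 56 before that of Mgst1 and 121 before that of Gsta3. It was thus present both in genes with lower and in a gene with higher levels in PnocCre.

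By length, the most abundant member was Gpx4, the peroxidase that reduces lipid hydroperoxides in membranes and guards against ferroptosis. It had 23579 normalised counts per kilobase in PnocCre and 23322 in Wildtype. Next came Gpx3, the secreted peroxidase of plasma, with 9219.6 over all 10 libraries, then Txnip (7442), Cat (5369.9), Prdx3 (5039.9), Prdx5 (4270.4), Mgst1 (4109) and Sod1 (3125). At the low end stood Nqo1 (32.3), Gsta3 (28.0), Gstm6 (22.8) and Gstt3 (20.5), and the unmeasured Gsta2 and Gstm3 had at most 1 read in a library. Neighbours in this order were not separated beyond their spread: in 45 of 46 neighbouring pairs the ranges over 10 libraries overlapped, the exception being Gpx4 over Gpx3. Lengths are those the authors deposited per gene.

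**Figure D2:**
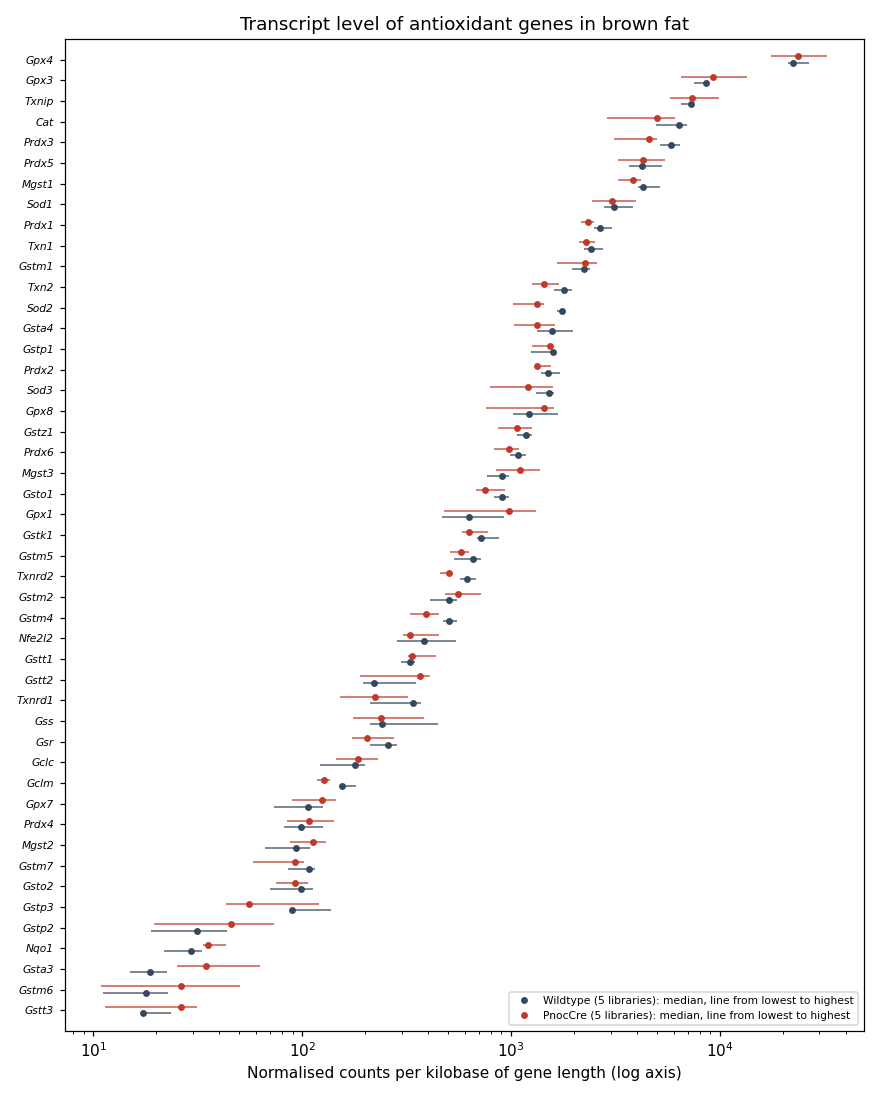
Normalised counts per kilobase of gene length for the 47 measured members on a log axis; points are medians of 5 libraries and lines run from the lowest to the highest library, for Wildtype and PnocCre. Gpx4 lies above all others, and the 2 lines of Sod2, Txnrd2, Prdx3, Gclm, Gstm4, Prdx1, Gsta3 and Nqo1 do not overlap.

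Glutathione is made in 2 steps, and the first, joining glutamate and cysteine, sets the rate. It is carried out by a catalytic subunit, Gclc, and a modifier subunit, Gclm. Gclm (ENSMUSG00000028124; GRCm39, chromosome 3, 122039206 to 122064381) had 801, 738, 803, 850.0 and 847 normalised counts in PnocCre replicates 1 to 5 and 942, 1137, 1061, 977 and 975 in Wildtype replicates 1 to 5. Every PnocCre library lay below every Wildtype library. The means were 808 ± 45.4 and 1018 ± 79.7 (SD, n = 5 each), a log2 fold change of -0.33 (SE 0.087, limma adjusted p 0.141; DESeq2 adjusted p 0.0221), which was -0.22 with the brown adipocyte covariate. Gclc was not lower with it: its libraries had 642, 732, 546, 698 and 864 in PnocCre and 459, 647, 755, 674 and 684 in Wildtype, overlapping groups with a log2 fold change of 0.12 (SE 0.15, limma adjusted p 0.701). Gss, which adds glycine in the second step, varied more between libraries than any other enzyme of this role, from 1034 to 2629, and its means were 1559 ± 499 and 1749.8 ± 596. Gsr, the reductase that restores glutathione from its oxidised form, had 615 ± 121 and 693 ± 77.5 (log2 fold change -0.19, SE 0.14, limma adjusted p 0.493).

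No glutathione peroxidase differed beyond the spread between libraries. Gpx4 had 56311, 40752, 43803, 30409 and 31972 normalised counts in PnocCre and 46118, 42122, 36722, 38596 and 37478 in Wildtype. PnocCre replicate 1 was the highest of all 10 libraries and PnocCre replicate 4 the lowest, so the PnocCre values enclosed those of Wildtype. The log2 fold change was -0.016 with an SE of 0.17, and its sign turned with the scaling (0.011 with TMM factors). Gpx1, the main peroxidase of the cytosol and mitochondria, had 1907, 1422, 1416, 692 and 863 in PnocCre against 1335, 976, 835, 909 and 675 in Wildtype. PnocCre replicates 1 to 3 lay above all Wildtype libraries and replicates 4 and 5 lay among the lower ones. Its log2 fold change was 0.36 with an SE of 0.26 (limma adjusted p 0.489). Gpx3 likewise spread widely in PnocCre, with 23402, 11874, 24582, 16831 and 14970.0, while the Wildtype libraries stayed between 13694 and 15724. Of the peroxidases of the endoplasmic reticulum, Gpx7 stood at 0.29 (SE 0.18) and Gpx8 at -0.12 (SE 0.23) on the log2 scale.

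The 18 measured glutathione S-transferases were split, with 11 lower and 7 higher and a median log2 fold change of -0.074. Several are near-identical copies that lie side by side, so reads may have been assigned to the wrong copy and the values of single genes are uncertain. The 7 Gstm genes, of the mu class, lie within 149074 bases of chromosome 3 (107803137 to 107952210, GRCm39), the 4 Gstt genes of the theta class within 63310 bases of chromosome 10, and the 3 Gstp genes of the pi class within 24163 bases of chromosome 19. Gstm4 (ENSMUSG00000027890; chromosome 3, 107947724 to 107952210) had 560.0, 597, 704, 667 and 772 normalised counts in PnocCre and 944, 849, 864, 804 and 859 in Wildtype, with no overlap. Its means were 660.2 ± 84.3 and 864 ± 50.5, a log2 fold change of -0.39 (SE 0.10, limma adjusted p 0.141; DESeq2 adjusted p 0.0331). Its neighbours were mixed. Gstm1, the most abundant transferase of the mu class, had 3159 ± 555 and 3217 ± 238, and Gstm2 and Gstm6 were on the higher side at 0.25 (SE 0.14) and 0.48 (SE 0.44). For Gstm6, PnocCre replicates 4 and 5 had 87.3 and 100.1 counts, against 21.6 to 52.3 in the other 8 libraries. Gstm5 and Gstm7 were at -0.12 and -0.30.

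Gsta3 (ENSMUSG00000025934; chromosome 1, 21310813 to 21335885), an alpha-class transferase of low level here, was the member with the largest difference. The PnocCre libraries had 117, 152, 271, 109 and 151 normalised counts and the Wildtype libraries 79.9, 91.5, 98.1, 65.2 and 81.3. All PnocCre libraries were higher than all Wildtype libraries, with replicate 3 far above the rest. The means were 159.9 ± 65.3 and 83.2 ± 12.5, a log2 fold change of 0.87 (SE 0.24, limma adjusted p 0.151; DESeq2 adjusted p 0.0204). Fibroblast, macrophage and white adipocyte markers were also mostly higher in PnocCre, with overlapping sums, as given above. PnocCre replicate 3 had the highest white adipocyte sum of all 10 libraries (25615). The part of these cells in the difference of Gsta3 was not tested. Gsta4, which has a preference for the lipid aldehyde 4-hydroxynonenal, went the other way without passing a test: 1543, 1875, 2052, 1678 and 1308 in PnocCre and 2509.6, 2419, 1695, 1686 and 1998 in Wildtype, a log2 fold change of -0.28 (SE 0.15, limma adjusted p 0.362).

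Gstp1, the abundant transferase of the pi class, had 2244 ± 237 and 2335 ± 238 normalised counts, a difference of -0.057 (SE 0.11) on the log2 scale. Its low neighbours pointed in opposite directions. Gstp3 had 72.7, 109, 50.5, 48.7 and 39.0 in PnocCre and 124, 80.7, 81.2, 80.4 and 110.4 in Wildtype. PnocCre replicate 2 lay within the Wildtype range and the other 4 PnocCre libraries lay below it (log2 fold change -0.64, SE 0.27, limma adjusted p 0.263). Gstp2 stood at 0.30 with an SE of 0.36. Gstk1, the transferase of mitochondria and peroxisomes, had 979 ± 129 and 1085 ± 110.1 (log2 fold change -0.15, SE 0.11). The theta class lay between 0.14 for Gstt3 and 0.26 for Gstt2, the omega genes Gsto1 and Gsto2 at -0.20 and -0.091, and Gstz1, which also takes part in tyrosine breakdown, at -0.13. For the microsomal transferases, membrane enzymes unrelated to the soluble ones, Mgst1 had 7752, 6858, 8399, 6546 and 8072 in PnocCre against 9446, 8618, 8482, 10383 and 8153 in Wildtype. Only PnocCre replicate 3 reached the Wildtype range (8153 to 10383), and the log2 fold change was -0.26 (SE 0.11, limma adjusted p 0.267). Mgst3 and Mgst2 stood on the other side of 0, at 0.26 (SE 0.14) and 0.26 (SE 0.16).

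Among the peroxiredoxins, which remove hydrogen peroxide through a reactive cysteine, 5 of 6 were lower in PnocCre. Prdx3, the peroxiredoxin of the mitochondrial matrix (chromosome 19, 60852489 to 60862994), had 5479.5, 4617, 7204, 7372 and 6774 normalised counts in PnocCre and 7671, 8885, 8428, 8583 and 9476 in Wildtype. The groups did not overlap, and PnocCre replicates 1 and 2 were the lowest. The means of 6289 ± 1193 and 8609 ± 659.9 gave a log2 fold change of -0.47 (SE 0.14, limma adjusted p 0.163; DESeq2 adjusted p 0.0526), which was -0.19 with the brown adipocyte covariate. Prdx1, its main cytosolic relative, had 6882, 6549, 7599, 7177 and 7086 in PnocCre and 9259, 8037, 8084, 8307 and 7617 in Wildtype. Its groups did not overlap either, but PnocCre replicate 3 came within a few counts of Wildtype replicate 5, and the log2 fold change was -0.23 (SE 0.094, limma adjusted p 0.258). Prdx5, which is found in mitochondria, peroxisomes and the cytosol, had means of 9129.7 ± 1891 and 9139 ± 1305, with PnocCre replicate 1 the highest and replicate 5 the lowest of all libraries. Prdx2, Prdx4 and Prdx6 stood at -0.12, 0.12 and -0.16, with SEs of 0.097, 0.18 and 0.10.

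Txnrd2, the selenium-containing reductase that recharges mitochondrial thioredoxin, had the smallest p of all members. It (ENSMUSG00000075704; chromosome 16, 18245134 to 18297823) had 2229.5, 2021, 2238, 2063 and 2211 normalised counts in PnocCre and 2987, 2714, 2514, 2627 and 2959 in Wildtype. The PnocCre libraries lay close together and all below the Wildtype libraries. Their means were 2152 ± 102 and 2760.1 ± 207, 22.0% lower in PnocCre, with a log2 fold change of -0.36 (SE 0.087, limma adjusted p 0.129; DESeq2 adjusted p 0.00448). DESeq2 called it lower with any 1 of the 10 libraries left out, the only member of which this holds. With the muscle covariate DESeq2 did not call it, and its log2 fold change in limma was -0.25 (SE 0.11). With the brown adipocyte covariate that value was -0.43. Txn2, the mitochondrial thioredoxin itself, had 6512, 5279, 7176, 5301 and 6042 in PnocCre and 8202, 7565, 6782, 7989.9 and 6972 in Wildtype. PnocCre replicate 3 lay within the Wildtype range, and the log2 fold change was -0.31 (SE 0.12, limma adjusted p 0.210). The cytosolic thioredoxin Txn1 had 2432 ± 158 and 2624 ± 218 (log2 fold change -0.11, SE 0.092). Its reductase Txnrd1 had 1496, 1079.5, 1587, 2277 and 2219 in PnocCre and 1503, 2413, 2619, 2153 and 2496 in Wildtype. PnocCre replicates 1 to 3 were low and replicates 4 and 5 lay among Wildtype replicates 2 to 5, while in Wildtype only replicate 1 was low. The log2 fold change was -0.40 with an SE of 0.21. Txnip, the inhibitor of thioredoxin whose transcript follows glucose, was abundant in both groups, with 22943, 17939.6, 27640.3, 30907 and 21853 in PnocCre and 23342, 22754, 21115, 23500.2 and 20432 in Wildtype, and its groups overlapped (log2 fold change 0.10, SE 0.15).

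**Figure D3:**
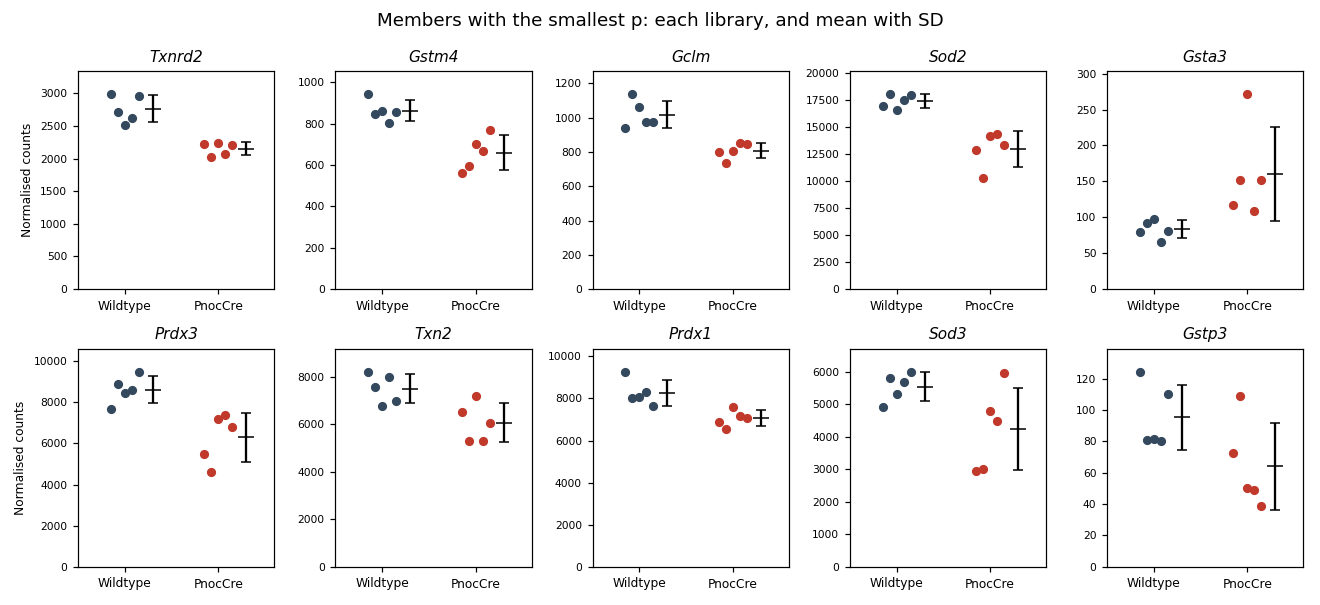
Normalised counts of the 10 members with the smallest p in each of the 5 Wildtype and 5 PnocCre libraries (dots), with the mean and SD beside them; each vertical axis starts at 0. For Txnrd2, Gstm4, Gclm, Sod2, Prdx3 and Prdx1 all PnocCre dots lie below all Wildtype dots, and for Gsta3 all lie above.

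All 4 genes of the superoxide dismutases and catalase were on the lower side, with a median log2 fold change of -0.43. Sod2, the manganese enzyme of the mitochondrial matrix (ENSMUSG00000006818; chromosome 17, 13225733 to 13258950), had 12890.0, 10254, 14147, 14391 and 13362 normalised counts in PnocCre and 16985, 18063, 16635, 17552 and 17988 in Wildtype. The groups did not overlap, and the Wildtype libraries lay close together. Means were 13009 ± 1653 and 17445 ± 624, a log2 fold change of -0.43 (SE 0.11, limma adjusted p 0.143; DESeq2 adjusted p 0.00984). Sod1, the copper-zinc enzyme of the cytosol, had 12158 ± 2321 and 12658 ± 1553 (log2 fold change -0.070, SE 0.14). The secreted Sod3 had 2957, 3023, 4792, 4503 and 5953 in PnocCre and 4917, 5807, 5323, 5704 and 6000.0 in Wildtype. PnocCre replicates 1 and 2 were far below the others, and PnocCre replicate 5 was within the Wildtype range (log2 fold change -0.44, SE 0.18, limma adjusted p 0.260). Cat, the peroxisomal enzyme that breaks hydrogen peroxide into water and oxygen, showed the same 2 libraries low, with 8446, 7540.3, 13083, 14805 and 15907 in PnocCre and 12969, 15213, 16670.3, 18191 and 17489.9 in Wildtype. Its log2 fold change was -0.48 with an SE of 0.21 (limma adjusted p 0.273). With the brown adipocyte covariate Cat stood at -0.043, Sod2 at -0.21 and Sod3 at -0.26, and with the muscle covariate Cat stood at -0.81 and Sod1 turned to 0.17.

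Sod2, Prdx3, Txn2 and Txnrd2, the matrix enzymes with a named cytosolic counterpart, were set beside Sod1, Prdx1, Txn1 and Txnrd1 as a ratio within each library, which does not depend on scaling. The pairs were picked after the values were seen, so the ratios are given with no test. Sod2 over Sod1 was 0.823, 0.847, 1.10, 1.48 and 1.28 in PnocCre and 1.11, 1.45, 1.51, 1.42 and 1.48 in Wildtype. Prdx3 over Prdx1 was 0.886 ± 0.132 and 1.05 ± 0.150 (SD, n = 5 each). For Txn2 over Txn1 the ratios were 2.60, 2.38, 2.71, 2.23 and 2.50 in PnocCre and 2.82, 2.97, 2.67, 2.88 and 2.97 in Wildtype. In each of these 3 pairs the groups overlapped, and Txn2 over Txn1 came nearest to a separation, with 1 PnocCre library inside the Wildtype range. Txnrd2 over Txnrd1 had nearly equal means, 1.34 ± 0.393 and 1.30 ± 0.399.

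**Figure D4:**
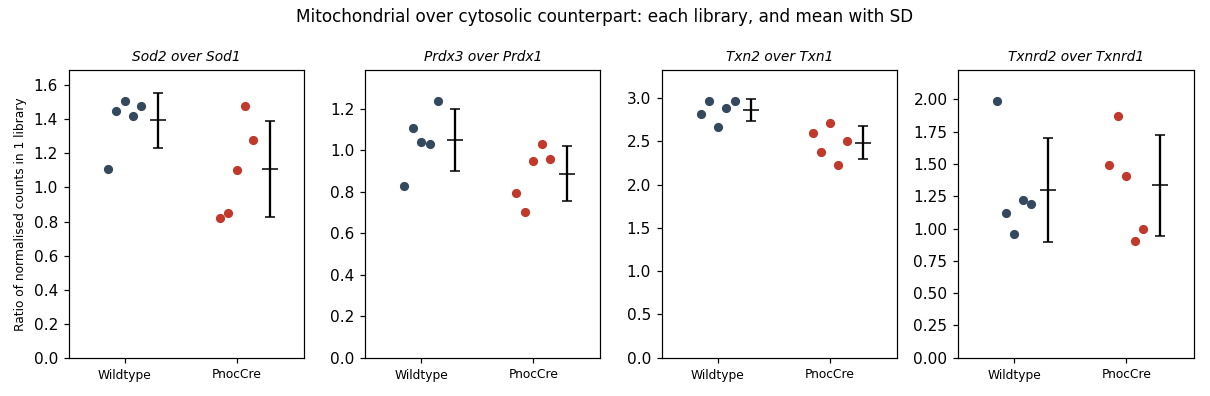
Ratio of a mitochondrial enzyme's normalised counts to those of its cytosolic counterpart in each of 5 Wildtype and 5 PnocCre libraries (dots), with the mean and SD beside them; vertical axes start at 0. The 2 groups overlap in all 4 panels.

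Nfe2l2, which encodes NRF2, had 1709, 1246, 1396, 1158 and 1212 normalised counts in PnocCre and 1454, 1434, 2074, 1559 and 1081 in Wildtype. The groups overlapped over most of their range (log2 fold change -0.16, SE 0.16, limma adjusted p 0.613). Nqo1, a quinone reductase often read as an NRF2 target, was low in brown fat, with 53.7, 67.2, 55.0, 51.8 and 56.1 in PnocCre and 33.8, 51.6, 51.7, 45.4 and 36.0 in Wildtype. Every PnocCre library was above every Wildtype library, but the lowest PnocCre and the highest Wildtype library had 51.8 and 51.7, and the test was not passed (log2 fold change 0.38, SE 0.19, limma adjusted p 0.324; DESeq2 adjusted p 0.348).

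Of 106 other genes of glutathione, thioredoxin and NRF2 biology in the table, 95 were measured, and 65 were lower and 30 higher in PnocCre (median log2 fold change -0.10). limma called 0 of them, with 18 lower (18.9%, against 8.07% of all genes) and 10 higher (10.5%, against 8.94%) at an unadjusted p under 0.05. DESeq2 called 4 lower (4.26%, against 1.36%) and 2 higher (2.13%, against 2.27%), so the higher counts were near the background. Slc25a39, the carrier that brings glutathione into mitochondria, had 6911, 6314, 8983, 7075 and 7858 normalised counts in PnocCre and 10580.0, 10682, 9454, 11065 and 10444 in Wildtype. Its groups did not overlap, and its log2 fold change was -0.50 (SE 0.11, limma adjusted p 0.120; DESeq2 adjusted p 0.00301). Msrb2, the mitochondrial enzyme that repairs oxidised methionine, was also lower without overlap, with 833 ± 118 and 1119 ± 63.8 (log2 fold change -0.43, DESeq2 adjusted p 0.0199). So was Slc3a2, the heavy chain of amino acid exchangers including the cystine importer, with 1177 ± 25.3 and 1630.5 ± 267 (-0.45, DESeq2 adjusted p 0.0124). Its partner in that importer, Slc7a11, was nearly silent, at 0 to 3.23 counts in 9 libraries and 26.3 in PnocCre replicate 2.

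Of the genes that supply NADPH, 10 were measured and limma called 0. At an unadjusted p under 0.05, 4 were lower (40%, against 8.07% of all genes) and 0 higher (against 8.94%). Their median log2 fold change over the 10 was -0.32. Mthfd2, named after its value was seen, had nearly equal means of 79.9 ± 19.8 and 79.3 ± 8.40 normalised counts. Pgd of the pentose phosphate pathway had 17912 ± 4291 and 28249 ± 5513 normalised counts (log2 fold change -0.67, SE 0.19, limma adjusted p 0.153; DESeq2 adjusted p 0.0281), and G6pdx, the first enzyme of that pathway, had 6862 ± 3113 and 10655 ± 2542 (log2 fold change -0.72, limma adjusted p 0.241; -0.33 with the brown adipocyte covariate). Idh2, which makes NADPH in the mitochondrial matrix, had 8029 ± 1475 and 8349 ± 412, with an SE of 0.13 around a log2 fold change of -0.075. Nnt, the proton-driven NADPH source of the inner mitochondrial membrane, was at 0 to 5.45 counts in all 10 libraries. On the control side of NRF2, Keap1, the adaptor that sends NRF2 for degradation, stood at -0.32 (SE 0.14, limma adjusted p 0.291). Of 13 further NRF2 targets measured, 8 were lower and 5 higher, with a median log2 fold change of -0.17. Among them Srxn1, which rescues overoxidised peroxiredoxins, stood at -0.50 (SE 0.22) and Hmox1 at -0.82 (SE 0.44). Wildtype libraries of Hmox1 ran from 172 to 838. With the brown adipocyte covariate Srxn1 stood at 0.21 and Hmox1 at 0.52. On the higher side were Nxn, a thioredoxin-like protein (310.3 ± 84.2 and 189 ± 38.4, log2 fold change 0.70, DESeq2 adjusted p 0.0315), and Ggt5, an outward-facing enzyme that acts on glutathione conjugates (0.66, limma adjusted p 0.175; 0.062 with the brown adipocyte covariate). Both are named by their p. Fibroblast, macrophage and endothelial markers were mostly higher in PnocCre as well, although their sums overlapped between groups. The part of any cell type in Nxn and Ggt5 was not tested. Ncf1, a subunit of the phagocyte oxidase, named here after its value was seen, was the other higher call of DESeq2 (adjusted p 0.0305; limma adjusted p 0.225), with 103, 195, 42.4, 39.6 and 19.0 in PnocCre and 18.9, 25.8, 35.9, 19.8 and 12.8 in Wildtype. PnocCre replicates 1 and 2, which stood apart in neutrophil and lymphocyte markers, were the highest, and PnocCre replicate 5 lay within the Wildtype range.

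The members did not move as a block from library to library. PnocCre replicate 2 was the lowest of all 10 libraries for 18 of the 47 measured members, among them Cat, Gclm, Gsr, Prdx1, Prdx3, Sod2, Txn2, Txnrd1 and Txnrd2, and it was the highest for 5. Wildtype replicate 1 was the highest for 15 members, among them Gsta4, Gstm4, Prdx1, Prdx2, Prdx6, Txn1, Txn2 and Txnrd2. PnocCre replicate 1 was the highest for Gpx1, Gpx4, Gpx7, Prdx5 and Sod1, although it was the lowest for Gstm4, Gstm6 and Sod3. PnocCre replicate 4 was the lowest for 8 members, including Gpx4, Gpx8, Gstk1, Mgst1 and Sod1. The SD of the log2 values was larger in PnocCre than in Wildtype for 32 of the 47 (68.1%), close to the 70.2% of all genes tested, with median SDs of 0.26 and 0.17. With PnocCre replicate 2, rich in lymphocyte markers, left out, 7 members were lower (14.9%, against 5.46% of all genes in that fit) and 4 higher (8.51%, against 6.89%) at an unadjusted p under 0.05, in place of 11 and 1. Groups then did not overlap for 7 lower members (14.9%, against 2.86%) and 2 higher ones (4.26%, against 2.12%).

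**Figure D5:**
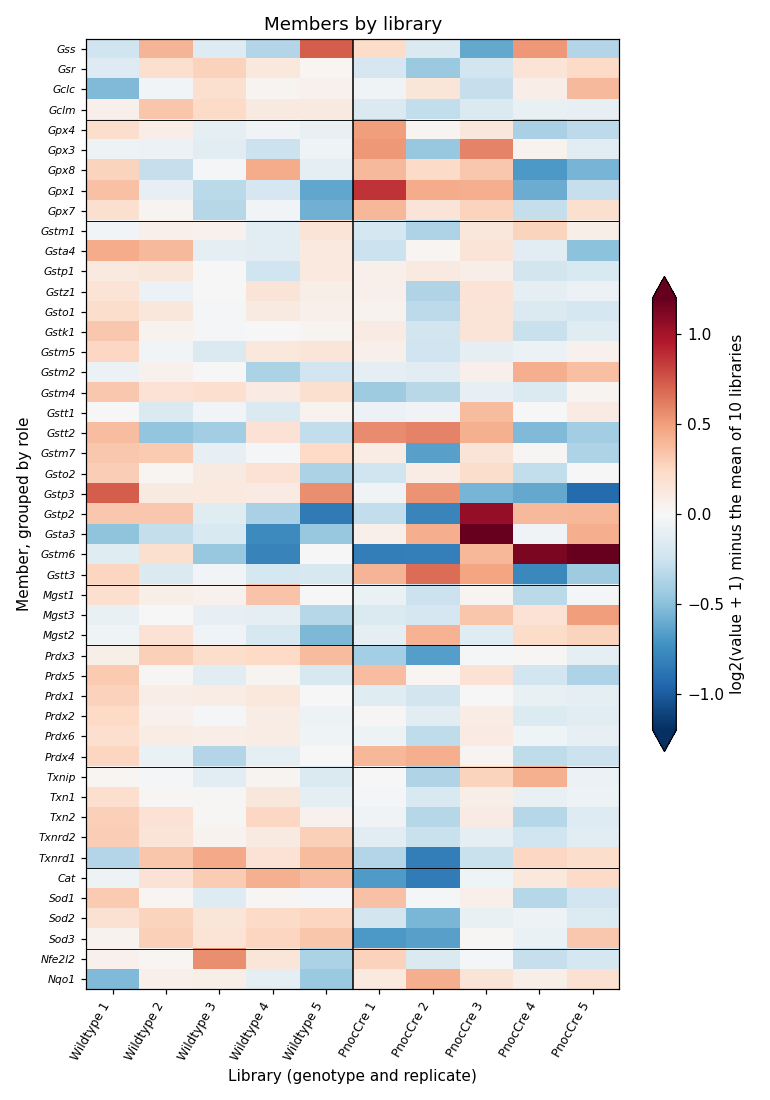
Log2(value + 1) of each measured member minus its mean over 10 libraries, with members in rows by role and libraries in columns, 5 Wildtype then 5 PnocCre; red is above and blue below the mean, and colours saturate at 1.2. PnocCre 2 is the lowest library for 18 members, and within PnocCre the peroxidases Gpx1, Gpx4 and Gpx8 are high in replicate 1 and low in replicate 4.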

How the data were processed

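PolyA RNA of 10 mouse brown fat samples was sequenced in strand-marked libraries, per the labels' protocols. The submitters' processing notes name the build GRCm39 and, as tools, HISAT2 (2.0.5), DESeq2 and featureCounts (1.5.0-p3). Annotation and strand setting were not given in the sources used here; near-identical copies and overlapping genes are thus uncertain. The deposited value of a gene in a library is a signal, namely its reads divided by the authors' size factor (0.8585 to 1.215). Reads came back as whole numbers for 100% of the values (tolerance 0.01), although for PnocCre replicate 5 the size of 1 read is so near 1 that an automatic check could not judge it. Log2 fold changes and p-values of the authors stand in the same deposited table, where an adjusted p of 1 marks 10130 genes without one; DESeq2 on the recovered reads gave its 575 calls. Gene length, another deposited column, set levels per kilobase.

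The main test was limma-trend (robust, 2-sided) on log2(value + 1) over the 15301 genes whose mean reached 10, with Benjamini-Hochberg adjustment over all of them and a threshold of 0.05. DESeq2 and edgeR's quasi-likelihood test were run on the recovered reads; edgeR called 0 genes, with 17.6% at an unadjusted p under 0.05. Software used here was DESeq2 1.42.0, edgeR 4.0.16 and limma 3.58.1 under R 4.3.3, and the tests were tried on simulated counts first. Replicate numbers follow the order of the records. No 2 libraries looked like a repeat deposit, the lowest chi-square per degree of freedom within a group being 17.8. Members named with library values are a list by role and the 10 with the smallest limma p among those with a mean of at least 50; for other pathway genes, a short list and the 6 with the smallest p. Alternatives were other filters, pseudocounts, scalings and tools, quality weights, 2 marker covariates and each library left out. Members, lists and tests were chosen with earlier results of these data known.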

Additional observations from a re-analysis of the deposited data

Results flagged for a closer look

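In 31 named members, each group of 5 libraries was searched for a library whose gap to the next exceeded 0.710 of the group's range (Dixon's critical value), which chance gives in about 1 of 20 groups. Of 62 groups, 3 held one. Wildtype replicate 1 had 1279.5 normalised counts of Gstk1, against 1012 to 1052 in the other Wildtype libraries. PnocCre replicate 3 had 271 of Gsta3, against 109 to 152, and is the library that widens the difference of this gene, whose groups did not overlap. PnocCre replicate 2 had 67.2 of Nqo1, against 51.8 to 56.1. The same library was the one rich in lymphocyte markers.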

How the results depend on the processing

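The members' median log2 fold change stayed below 0 under every alternative run, from -0.15 to -0.023. The number of members whose groups did not overlap was 7 to 11. The 7, with TMM, were 5 lower (10.6%, against 2.08% of all genes) and 2 higher (4.26%, against 2.07%). The 11, without PnocCre replicate 3, were 9 lower (19.1%, against 4.03%) and 2 higher (4.26%, against 2.57%). Groups with fewer libraries separate more easily. DESeq2 called 575 genes, 5 members and 6 other pathway genes where limma called 0; library quality weights called 53 genes and 0 members, and leaving out 1 library 0 to 1 genes. Lower members at an unadjusted p under 0.05 numbered 6 with edgeR (12.8%, against 5.91% of all genes). They numbered 3 with the brown adipocyte marker covariate (6.38%, against 1.56%), which was chosen after seeing the data. With 1 library left out they numbered 7 to 12. The 7, without PnocCre replicate 2 or Wildtype replicate 2 or 4, were 14.9%, against 5.46%, 6.41% and 5.55%. The 12, without PnocCre replicate 3, were 25.5%, against 8.16%. Higher members numbered 2 with voom (4.26%, against 9.19% of all genes) and 4 with quality weights (8.51%, against 9.69%). They numbered 2 with the muscle covariate (4.26%, against 9.86%) and 1 to 4 with 1 library left out. The 4, without PnocCre replicate 2, were 8.51%, against 6.89%. With any other library left out, the share of higher members was below that of all genes. DESeq2 called 0 members with the muscle covariate, where it called 3.22% of all genes. With 1 library left out it called 1 to 6 members and 1.39% to 4.64% of all genes. Of 42 single genes followed, 29 kept their direction throughout and 13 turned. Gpx4 turned to 0.011 with TMM, 0.044 with edgeR, 0.016 with DESeq2, 0.010 with voom and 0.24 with the muscle covariate. Prdx5 turned to 0.012 with TMM, 0.026 with edgeR, 0.012 with voom, 0.024 with quality weights and 0.18 with the muscle covariate. Quality weights also turned Gclc to -0.012, Gstm1 to 0.034 and Idh2 to 0.039. The muscle covariate turned Gclc to -0.11, Gss to 0.21, Gstp1 to 0.14 and Sod1 to 0.17. The brown adipocyte covariate, which nearly followed genotype, turned Txnrd1 to 0.093, Gsr to 0.11, Nfe2l2 to 0.090, Gstm1 to 0.11, Idh2 to 0.067, Hmox1 to 0.52 and Srxn1 to 0.21. With 1 library left out, values ran from -0.11 to 0.046 for Gstm1, -0.14 to 0.00880 for Idh2, -0.17 to 0.00544 for Sod1, -0.14 to 0.080 for Gpx4, -0.11 to 0.077 for Prdx5, -0.00143 to 0.20 for Gclc and -0.31 to 0.000643 for Gss. The cause of these changes was not tested. No paired analysis was possible because the labels carry no replicate numbers that the groups share. Gstt4, Gsta2 and Gstm3 were too low to be tested at this depth, and reads of near-identical transferases may have been assigned to the wrong copy.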
